A study of Mus musculus with 17 samples.

Results

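Rtn3, Rtn4, Npc1 and Npc2 are the 4 genes described here, 4 of the 19032 genes that had a row in both tables of counts per gene. They were taken by symbol. Rtn3 and Rtn4 are reticulons. Rtn4 encodes the Nogo proteins, among them Nogo-B, the ligand after which the Nogo-B receptor (NgBR) is named, and Npc1 and Npc2 encode the lysosomal cholesterol carriers of the Niemann-Pick C pathway.

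RNA-seq had been performed on liver and tumor of mice in which Nus1, the gene for NgBR, was deleted in hepatocytes (N-LKO), by a Cre recombinase driven from the albumin promoter acting on a loxP-flanked allele, and on liver of WT mice. All mice were males of the C57BL6 background, and other liver cells kept the allele. Diets lasted 16 weeks and followed 8 weeks on chow. The HFD set, from a high-fat diet, held 4 WT and 4 N-LKO livers, and the WD set, from a Western diet rich in fat and cholesterol, held 3 WT livers, 3 N-LKO livers and 3 tumors from N-LKO mice. Whether a tumor and a liver came from the same mouse was not given, nor whether the WT mice carried the loxP allele.

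Reticulons are hairpin membrane proteins that bend the endoplasmic reticulum into tubules. The Nogo-A and Nogo-B proteins arise from Rtn4 by splicing from an upstream start, and Nogo-C arises from an internal start. NPC2 is a small soluble protein of the lysosome that takes cholesterol freed from lipoproteins and hands it to NPC1, a membrane protein that passes it out of the lysosome, and NgBR was first described as a receptor for Nogo-B and was also found to bind NPC2. With Dhdds, NgBR forms the cis-prenyltransferase that makes dolichol.

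In GRCm38, Rtn4 lies on chromosome 11 from 29692947 to 29744331 on the plus strand, with 6 annotated protein-coding transcripts of 1272 to 4618 bases. Rtn3 lies on chromosome 19 from 7425901 to 7483281 on the minus strand and has 5 such transcripts. Npc2 lies on chromosome 12 from 84754562 to 84773152 on the minus strand with 1 coding transcript of 4 exons, and Npc1 has 1 coding transcript of 25 exons. Counts were made per gene, so Nogo-A, Nogo-B and Nogo-C could not be told apart. Other genes overlap Rtn3, Rtn4 and Npc1 on the opposite strand, and strand use in counting was not stated. Over the WD libraries these partners had mean counts of 5.67 to 329, against 1996 to 3308 for the 3 genes.

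The sequences before the starts of the 2 genes that were called in a comparison are shown, because Rtn4 has several starts and the Npc2 start has a neighbor. RefSeq held windows for Rtn3, Rtn4 and Npc2 on GRCm38.p6. Each line is the stretch outside annotated exons within the 250 bases before a start, 5′ to 3′ on the gene's strand, and capitals mark a GC box (GGGCGG) or a CCAAT box (CCAAT) on either strand.
Rtn4 upstream start, chr11:29692648-29692897, plus strand: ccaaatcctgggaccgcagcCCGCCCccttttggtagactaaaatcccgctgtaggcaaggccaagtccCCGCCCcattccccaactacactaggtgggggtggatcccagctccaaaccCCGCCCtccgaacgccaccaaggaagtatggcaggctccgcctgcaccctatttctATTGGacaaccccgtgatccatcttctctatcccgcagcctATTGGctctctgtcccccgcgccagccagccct
Rtn4 internal start, chr11:29718313-29718562, plus strand: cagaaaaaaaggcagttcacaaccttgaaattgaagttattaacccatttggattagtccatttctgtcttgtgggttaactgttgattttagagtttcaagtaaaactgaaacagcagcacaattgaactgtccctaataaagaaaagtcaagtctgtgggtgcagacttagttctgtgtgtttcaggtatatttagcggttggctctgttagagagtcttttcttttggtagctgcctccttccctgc
Npc2 start, chr12:84773153-84773250, minus strand: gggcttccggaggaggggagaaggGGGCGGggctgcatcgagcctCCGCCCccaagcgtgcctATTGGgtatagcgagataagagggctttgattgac
The upstream Rtn4 stretch held 3 GC boxes and 2 CCAAT boxes with 61.2% G and C. The internal Rtn4 stretch held neither, with 39.2% G and C. A further Rtn4 start lies between these, and the 80 bases before it that are outside annotated exons, with 70.0% G and C, held neither and are not printed. The 98 bases of Npc2 held 2 GC boxes and 1 CCAAT box, and they end at the first exon of Isca2, an iron-sulfur cluster assembly gene that runs the other way. Among 32851 windows of 250 bases, 32.7% held a GC box and 33.9% a CCAAT box. The stretches of 98 and 80 bases are shorter than these windows, so the shares do not apply to them directly. The whole 250 bases before the Npc2 start held 3 GC boxes and 2 CCAAT boxes. Of 4 further motifs, none was in the 3 printed stretches on either strand. An E-box, spelled CACGTG, was in 6.02% of the windows. The AP-1 site, spelled TGANTCA, was in 6.75%, a TATA box, spelled TATAAA, in 12.4%, and the endoplasmic reticulum stress element, which holds a CCAAT box, in 0.113%.

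Total counts per library were 9096110 to 12215784 under HFD and 15494731 to 20200618 under WD. All 4 genes were well covered, from 358 counts for Npc2 in a WT liver under HFD to 8709 for Rtn4 in a tumor. The diets were in separate tables, and mitochondrial genes took 10.9% to 13.5% of counts in the HFD libraries and 3.82% to 7.89% in the WD libraries, and diet and table cannot be told apart and levels are not compared between diets. WT liver replicate 2 under WD had the lowest TMM scaling factor, 0.806, and the lowest mitochondrial share. In bulk tissue, fewer cells of a type and less RNA per cell cannot be told apart. The targeted gene was low in every N-LKO library. Nus1 stood at 29.4, 35.4, 37.6 and 38.0 CPM (counts scaled to a common library size by TMM) in N-LKO and at 82.5 to 96.2 in WT liver under HFD. Under WD it stood at 41.7, 47.3 and 51.1 in N-LKO liver, at 28.99, 34.5 and 43.99 in tumor and at 88.2 to 98.9 in WT liver. Dhdds stood between 13.1 and 25.6 in all 17 libraries.

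Each of the 4 genes was expressed above most genes tested. Mean CPM exceeded that of 82.7% to 92.9% of 13460 genes under HFD and of 88.3% to 96.0% of 17829 genes under WD, with Npc2 the lowest in both tables. Per kilobase of merged exons the order in WT liver under HFD was Rtn3 with 22.8 ± 1.23, Rtn4 with 11.6 ± 2.09, Npc1 with 10.99 ± 1.06 and Npc2 with 8.08 ± 0.838 CPM per kb (SD, n = 4). Rtn4 and Npc1 were within 1 SD of each other there. In WT liver under WD the order was the same, at 21.5 ± 0.506, 16.6 ± 3.44, 16.4 ± 2.54 and 12.6 ± 1.47 (SD, n = 3). The SD ranges of Rtn4 and Npc1 overlapped there, as did those of Npc1 and Npc2. In N-LKO liver and tumor under WD, Rtn4 stood first with 21.2 ± 1.94 and 35.1 ± 17.6 CPM per kb, within 1 SD of Rtn3 with 20.4 ± 1.18 and 21.8 ± 4.80. The order rests on the length used. With the longest coding transcript, Npc1 stood first in WT liver under both diets, with 23.8 ± 2.30 and 35.5 ± 5.50 CPM per kb. Its SD range overlapped that of the next gene under both, Rtn3 with 22.8 ± 1.24 under HFD and Rtn4 with 25.1 ± 5.20 under WD.

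**Figure D1:**
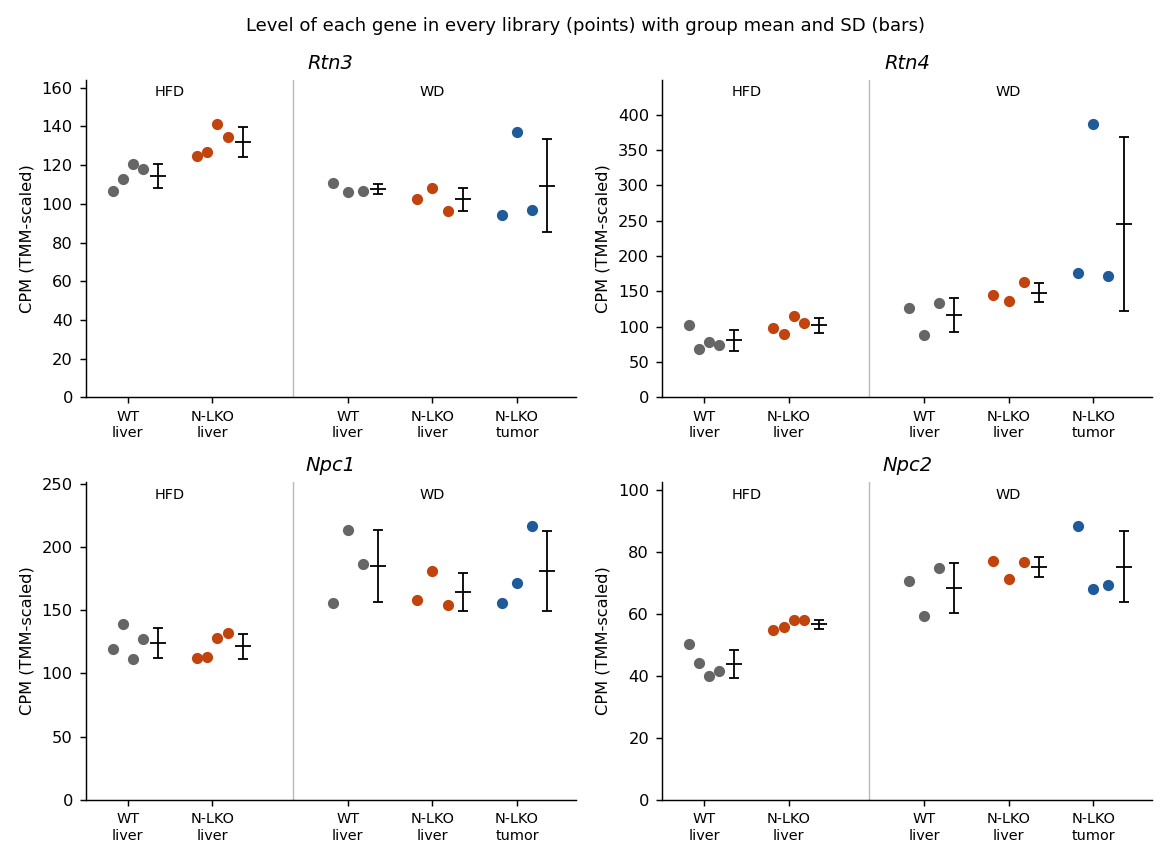
CPM scaled by TMM (y axis) of Rtn3, Rtn4, Npc1 and Npc2 in every library (points), by group (x axis), with the group mean and SD beside them. Npc2 under HFD sits at 54.9 to 58.0 in N-LKO and at 39.8 to 50.2 in WT liver, and Rtn4 in tumor replicate 2 sits at 387.

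The first comparison asked whether these genes change when hepatocytes lack NgBR under HFD. Npc2 rose and the other 3 genes did not pass the test. Npc2 stood at 54.9, 55.6, 58.0 and 57.9 CPM in N-LKO replicates 1 to 4 and at 50.2, 44.2, 39.8 and 41.6 in WT. Every N-LKO liver was above every WT liver. The log2 fold change of Npc2 was 0.37 ± 0.09 (SE), 1.29-fold, with adjusted p = 0.0360 in edgeR's quasi-likelihood test. The N-LKO livers lay close together, with an SD of 1.57 CPM against 4.55 in WT liver.

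Rtn4 stood at 98.3, 89.5, 115.2 and 104.7 CPM in N-LKO and at 101.8, 68.5, 78.7 and 74.1 in WT liver under HFD. WT replicate 1 was as high as the N-LKO livers, and the other 3 WT livers were below all 4 of them. The log2 fold change was 0.33 ± 0.12 with adjusted p = 0.132 (edgeR), which passed in 1 of 17 alternatives. Without WT replicate 1 it was 0.46 with adjusted p = 0.0317, and without WT replicate 2 it was 0.26 with adjusted p = 0.301. Rtn3 stood at 124.9, 126.5, 141.5 and 134.7 CPM in N-LKO and at 106.6, 112.8, 120.8 and 117.7 in WT liver. Its groups did not overlap, with a log2 fold change of 0.20 ± 0.08 and adjusted p = 0.138. Npc1, the membrane partner of NPC2 in cholesterol egress, lies on chromosome 18 from 12189692 to 12236400 on the minus strand. It stood at 112.6, 113.3, 128.1 and 132.1 in N-LKO and at 119.7, 139.4, 111.1 and 127.3 in WT liver. These overlapped throughout, and the log2 fold change was -0.03, with a 95% interval of -0.24 to 0.17.

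In all, 1 of the 4 genes was called under HFD, where 4.84% of 13460 genes were called. The groups of 2 of the 4 genes did not overlap, against 14.8% of all genes. The median log2 fold change of the 4 genes was 0.27, against -0.01 over all genes. The call for Npc2 was close to the threshold. It stayed past it in 2 of 8 fits that left out a library, with adjusted p from 0.0208 without WT replicate 1 to 0.0997 without WT replicate 4, and the log2 fold change stayed between 0.32 and 0.43. It was also lost with an offset for length and GC content, at adjusted p = 0.0532, with a replicate block, at 0.0594, and with both, at 0.0806.

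Isca2, whose first exon starts 98 bases from that of Npc2, stood at 21.3 to 25.5 CPM in N-LKO and at 14.7 to 21.3 in WT liver under HFD, which overlapped. Its log2 fold change was 0.30 with adjusted p = 0.162 (edgeR). It was looked at after the sequence was seen.

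Markers of other cells moved in the same livers, where 4.84% of all genes tested were called. The 7 stellate cell and fibroblast markers summed to 163.3 to 241 CPM in N-LKO and to 106 to 192 in WT liver, and 5 of 6 tested had a positive log2 fold change, with none called. At an unadjusted p under 0.05 (edgeR), 5 were higher and 1 lower, against 22.7% of all genes. The median of the list was 0.75, against -0.01 over all genes. From the list, Dcn, a matrix proteoglycan, had 0.50 with adjusted p = 0.0694 and Col3a1, a fibrillar collagen, 0.91 with adjusted p = 0.126 (edgeR). Of 14 tested Kupffer cell and macrophage markers, 4 fell and 1 rose. Timd4, a marker of resident Kupffer cells, fell by 2.19 on the log2 scale and Marco, a scavenger receptor, fell by 1.62, while Spp1, which is also made by bile duct cells, rose by 1.55. The sum of the macrophage list was 160 to 273 in N-LKO and 190 to 284 CPM in WT liver. Of 6 endothelial markers 1 was called, the sinusoidal receptor Stab2, which fell by 0.61. At an unadjusted p under 0.05 (edgeR), 4 were lower and 0 higher, and the median of the list was -0.45. The list summed to 76.8 to 112 CPM in N-LKO and to 106 to 130 in WT liver. The calls of Marco and Stab2 passed in 7 and 9 of 17 alternatives. No marker was at 0 in every library of a group in these lists, and their part in the Npc2 result was not tested. None of the 8 hepatocyte markers was called, with sums of 60483 to 78963 CPM in N-LKO and 66483 to 77126 in WT liver.

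**Figure D2:**
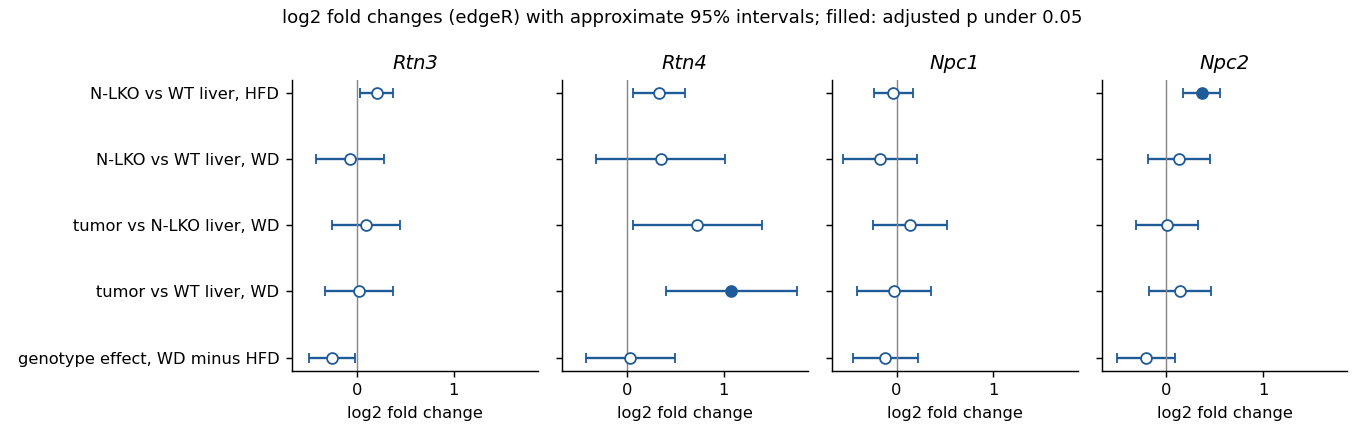
Log2 fold changes (x axis) of the 4 genes in each comparison (y axis) with 95% intervals from edgeR, filled where adjusted p was under 0.05. The filled points are Npc2 under HFD at 0.37 and Rtn4 in tumor versus WT liver at 1.08.

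Under WD, none of the 4 genes was called between N-LKO and WT liver, and edgeR called 0 of 17829 genes (0%) in that comparison. The deleted gene Nus1 was not called there either, with a log2 fold change of -1.02 and adjusted p = 0.151 (edgeR), though its groups did not overlap. Without adjustment 2212 genes (12.4%) had a p under 0.05, and the DESeq2 Wald test called 100 and limma-voom 0. Npc2 stood at 77.1, 71.3 and 76.7 CPM in N-LKO and at 70.8, 59.4 and 74.8 in WT liver, which overlapped. Its log2 fold change was 0.13, with a 95% interval of -0.19 to 0.46. Rtn4 stood at 145.4, 135.8 and 162.5 in N-LKO and at 126.4, 88.4 and 132.9 in WT liver. It was the 1 gene of the 4 whose groups did not overlap, against 27.9% of all genes, and its log2 fold change was 0.35 with an interval of -0.32 to 1.02 and adjusted p = 0.624. Rtn3 stood at 96.5 to 108 in N-LKO and at 106 to 111 in WT liver, and Npc1 at 154 to 181 and 156 to 213. Their log2 fold changes were -0.07 and -0.17, with intervals of -0.42 to 0.28 and -0.55 to 0.21. WT replicate 2 held the lowest Rtn4 and Npc2 and the highest Npc1 of the WT livers. Its sums of fibroblast markers, 242 CPM, and macrophage markers, 694, were also the lowest of the WT livers, where the other 2 had at least 501 and 1124. Without it the log2 fold changes were 0.19 for Rtn4, 0.04 for Npc2 and -0.06 for Npc1.

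An interaction term, fitted to the 14 livers, asked whether genotype acted differently under the 2 diets. None of the 4 genes was called, with 1.62% of 15850 genes called. The difference, WD minus HFD, was -0.26 ± 0.11 (SE) for Rtn3 with adjusted p = 0.207, -0.21 ± 0.14 for Npc2 with 0.422, -0.12 ± 0.16 for Npc1 with 0.730 and 0.04 ± 0.22 for Rtn4 with 0.948 (edgeR). The effect on Npc2 was not shown to differ between the diets.

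The remaining comparisons set tumor beside the liver groups under WD. They share the tumor libraries. Rtn4 was higher in tumor than in WT liver, and the other 3 genes did not pass the test. Rtn4 stood at 176.6, 387.4 and 171.5 CPM in tumor replicates 1 to 3, against 88.4 to 132.9 in WT and 135.8 to 162.5 in N-LKO liver. All 3 tumors were above all 6 livers, and replicate 2 was far above the other 2 tumors. Against WT liver the log2 fold change was 1.08 ± 0.30 (SE), 2.11-fold, with adjusted p = 0.0404 (edgeR). Against N-LKO liver it was 0.73 ± 0.30 with adjusted p = 0.237, and 0.23 without tumor replicate 2.

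The call for Rtn4 rested on several libraries. Without tumor replicate 2 the log2 fold change against WT liver was 0.55 with adjusted p = 0.0890, and without WT replicate 2 it was 0.92 with adjusted p = 0.144, the highest among 9 such fits, of which 2 stayed past the threshold. Fitting tumor and WT liver alone gave 1.06 with adjusted p = 0.103.

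Rtn3 stood at 94.3, 137 and 96.7 CPM in tumor, with replicate 2 again the highest and the others within or below the livers. Its log2 fold change was 0.02 against WT and 0.10 against N-LKO liver. Npc1 stood at 156, 172 and 217 in tumor, with log2 fold changes of -0.03 and 0.14, and Npc2 at 88.4, 68.1 and 69.4, with 0.14 and 0.01. The intervals against WT liver were -0.33 to 0.37 for Rtn3, -0.41 to 0.35 for Npc1 and -0.18 to 0.46 for Npc2. Against WT liver 1 of the 4 genes was called, where 14.9% of 17829 genes were called, and the groups of 1 did not overlap, against 34.1%. Against N-LKO liver none was called, where 0.499% were, and the groups of 1 did not overlap, against 23.1%.

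Marker lists differed between tumor and WT liver in the same libraries, where 14.9% of all genes tested were called. The 5 cholangiocyte markers summed to 29.4, 63.1 and 33.99 CPM in tumor replicates 1 to 3 and to 7.53 to 9.18 in WT liver, mostly from Sox9, a progenitor and bile duct transcription factor, which rose by 2.67 on the log2 scale. Epcam and Cftr, which mark bile duct cells, had 0.60 and 0.38, and the keratins Krt7 and Krt19 had -0.10 and -0.06. None of these 4 was called. The lymphocyte markers summed to 8.90, 13.6 and 8.71 in tumor and to 3.53 to 4.77 in WT liver, with 2 of 6 called, both higher. Of them Cd4, the helper T cell co-receptor, rose by 2.06, and Cd8a and Cd3e had 0.97 and 1.13 and were not called. Tumor replicate 2, with the highest Rtn4, was the highest in both sums. It was also the highest tumor in the sum of endothelial markers, at 339 CPM. In the sums of hepatocyte and macrophage markers it was the lowest tumor, at 36898 and 860 CPM. Of 15 macrophage markers 2 rose and 3 fell, among them Cd9, a tetraspanin, by 2.00, Spp1 by 2.88, and Marco, which fell by 4.13. Of 6 endothelial markers, Pecam1, a junction protein of vessels, rose by 1.08 and Cdh5, vascular cadherin, by 0.71, while Clec4g, of sinusoidal cells, fell by 1.39. The calls of Cdh5 and Clec4g each passed in 8 of 19 alternatives. Of 8 hepatocyte markers, Ttr, transthyretin, fell by 0.79 and Hnf4a, the hepatocyte transcription factor, by 0.75. None of the 7 stellate cell markers was called. Neurons carry much Nogo-A. The neuron markers with values, 3 of 6, summed to 1.82 to 3.92 in tumor and 2.51 to 4.29 in WT liver, and Map2 and Syp had log2 fold changes of -0.45 and -0.25, not called. The part of these cells in the Rtn4 result was not tested.

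Against N-LKO liver the same lists held 1 called gene, Sox9, which rose by 1.90 and passed in 8 of 19 alternatives, with adjusted p up to 0.216 without N-LKO replicate 2 (edgeR). The other 4 cholangiocyte markers had log2 fold changes of -1.06 to -0.65 there and were not called, and the median of the list was -1.04. Between N-LKO and WT liver under WD no gene of any list was called, where 0% of all genes were, and the interaction called none of the marker genes. Some sums did not overlap there. In N-LKO and WT liver, hepatocyte markers summed to 33652 to 43229 and 47423 to 58425 CPM, with a median log2 fold change of -0.53. Stellate cell markers summed to 583 to 728 and 242 to 582, cholangiocyte markers to 14.4 to 18.5 and 7.53 to 9.18, and lymphocyte markers to 4.89 to 6.81 and 3.53 to 4.77. The other marker sums overlapped.

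**Figure D3:**
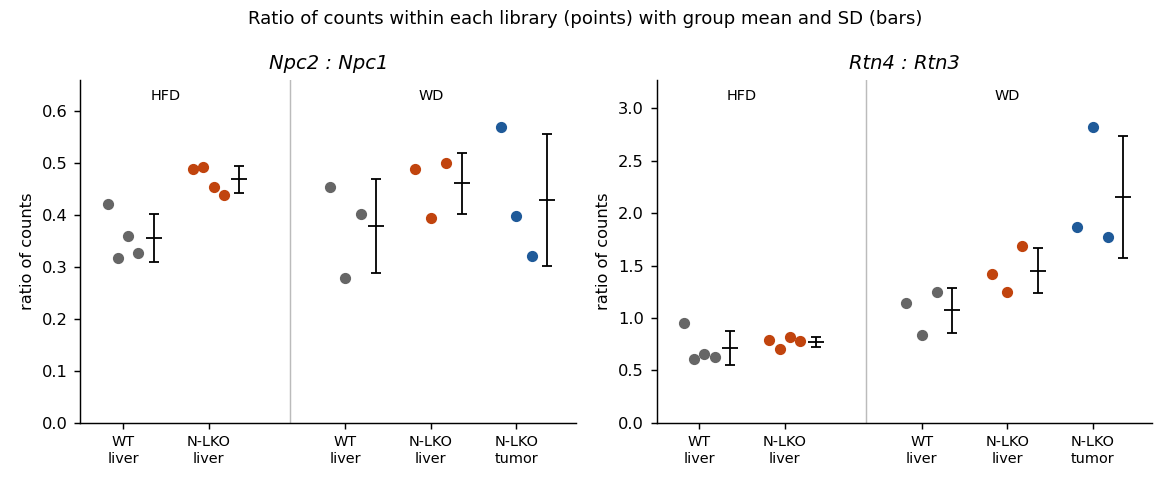
Ratios of counts of Npc2 to Npc1 and of Rtn4 to Rtn3 (y axes) in every library (points), by group (x axis), with group mean and SD. The Rtn4 to Rtn3 ratio is 0.834 to 1.25 in WT liver, 1.25 to 1.68 in N-LKO liver and 1.77 to 2.82 in tumor under WD.

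Ratios within a library need no scaling between libraries. The Npc2 to Npc1 ratio of counts was 0.468 ± 0.026 in N-LKO and 0.356 ± 0.046 in WT liver under HFD (SD, n = 4), without overlap. The difference in log2 ratio was 0.40, with p = 0.0286 in a two-sided exact permutation test, the smallest that 4 against 4 can give, and 0.200 after adjustment over 8 tests. Under WD the ratio was 0.460 ± 0.058 in N-LKO, 0.378 ± 0.090 in WT liver and 0.428 ± 0.127 in tumor (SD, n = 3), and these overlapped. The Rtn4 to Rtn3 ratio was 0.772 ± 0.046 in N-LKO and 0.711 ± 0.163 in WT liver under HFD. WT replicate 1 had 0.955 and the other 3 WT livers 0.608 to 0.652. Under WD the ratio was 1.07 ± 0.215 in WT liver, 1.45 ± 0.218 in N-LKO liver and 2.16 ± 0.579 in tumor (SD, n = 3), and no pair of groups overlapped. The log2 differences were 0.45 for N-LKO against WT liver, 0.55 for tumor against N-LKO liver and 0.99 for tumor against WT liver. Each had exact permutation p = 0.100, the smallest that 3 against 3 can give, and 0.200 after adjustment. With groups of 3 or 4 libraries, none of the 8 tests could have passed after adjustment, whatever the values. The adjusted p-values therefore decide nothing about the ratios.

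Genes of the surrounding pathways were described from 4 lists. For scale, the share called over all genes tested was 4.84% under HFD, 0% for genotype under WD and 1.62% for the interaction. It was 0.499% in tumor against N-LKO liver and 14.9% in tumor against WT liver. Of the 11 Nogo receptors and partners, 8 were tested, and the list holds Nus1 itself. Under HFD 2 fell, Nus1 by 1.33 on the log2 scale and Pirb, a leukocyte receptor that binds Nogo, by 1.49. Pirb stood at 0.828 to 1.68 CPM in N-LKO and at 2.44 to 4.67 in WT liver. Its effect under WD was 0.17, and the interaction of 1.68 was past the threshold, with adjusted p = 0.0265 (edgeR). It passed in 16 of 23 alternatives, with adjusted p up to 0.124. In tumor against WT liver 2 fell, Nus1 by 1.40 and Ngfr, the p75 co-receptor of Nogo signaling, by 1.20, from 6.80 to 10.1 CPM in WT liver to 2.19 to 4.58 in tumor. The medians of the list were -0.02 under HFD and -0.17 in tumor against WT liver.

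Of the 13 other reticulons and shaping proteins of the endoplasmic reticulum, 11 were tested under HFD and 13 under WD. Genotype called none under either diet, with medians of -0.10 and 0.13. In tumor against WT liver 1 rose and 2 fell. Reep6 stood at 207 to 339 CPM in tumor and at 561 to 721 in WT liver and fell by 1.20, Reep3 fell by 0.50 from 239 to 243 CPM to 160.8 to 184, and Reep5 rose by 0.77 from 15.3 to 22.5 CPM to 27.6 to 36.0. All 3 encode receptor expression-enhancing proteins, membrane-bending proteins that act beside the reticulons. The reticulons Rtn1 and Rtn2 of this list, looked at after their values were seen, had 0.03 and 0.88 there and were not called.

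All 20 genes of lysosomal cholesterol and lipid handling were tested. Under HFD none was called, with a median of 0.06, while 4 were higher and 2 lower at an unadjusted p under 0.05, against 22.7% of all genes. Ctsb, cathepsin B, stood at 445 to 493 CPM in N-LKO and at 391 to 421 in WT liver, without overlap, with a log2 fold change of 0.20 and adjusted p = 0.151. Psap, the prosaposin precursor of sphingolipid activator proteins, had 0.13 with adjusted p = 0.333 (edgeR). Lamp1 and Lamp2, lysosomal membrane proteins that were more abundant than both under HFD, had 0.10 and -0.23, with adjusted p = 0.582 and 0.181. Ctsl, cathepsin L, stood at 455 to 588 CPM in N-LKO and at 370 to 428 in WT liver, without overlap. It had 0.39 with adjusted p = 0.0555 (edgeR). Gm2a had 0.32 with adjusted p = 0.0627, and its groups overlapped. In tumor against WT liver 1 fell, Pla2g15, a lysosomal phospholipase, by 0.50, from 22.7 to 24.9 CPM to 14.4 to 17.8, a call that passed in 8 of 19 alternatives. The median there was -0.22, against 0.04 over all genes.

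Of 13 genes of cholesterol carriage beyond the lysosome, 12 were tested. Under HFD 1 fell, Abca1, the exporter of cholesterol to lipoproteins, from 197 to 204 CPM in WT to 132 to 165 in N-LKO liver, by 0.42, which passed in 12 of 17 alternatives. In tumor against WT liver 4 rose and 1 fell. Sqle, squalene epoxidase of cholesterol synthesis, rose by 2.58 from 1.36 to 3.10 CPM in WT liver to 6.08 to 20.4 in tumor. Gramd1a, Gramd1b and Gramd1c, which carry cholesterol from the plasma membrane to the endoplasmic reticulum, rose by 0.85, 1.28 and 0.94. Scp2, sterol carrier protein, fell by 1.00 from 2634 to 3387 CPM to 915 to 2120. The groups of Gramd1b overlapped, at 14.7 to 41.1 CPM in tumor and 7.87 to 15.4 in WT liver. Its call passed in 6 of 19 alternatives and that of Scp2 in 9, with adjusted p up to 0.156 and 0.111, both without WT replicate 2 (edgeR). The median was -0.06. Neither tumor against N-LKO liver nor genotype under WD called a gene of any of the 4 lists, and the interaction called Pirb alone.

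**Figure D4:**
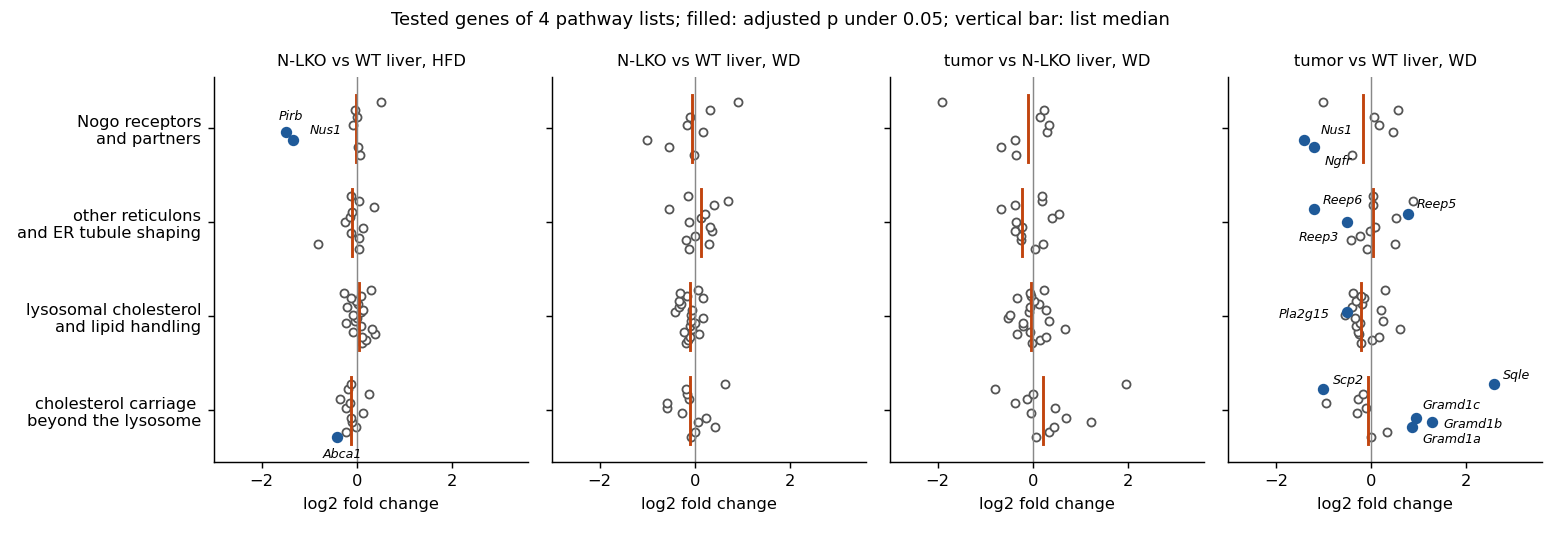
Log2 fold changes (x axis) of the tested genes of 4 pathway lists (y axis) in each comparison (panels), filled and named where adjusted p was under 0.05, with the list median as a bar. The panel of tumor versus WT liver holds 11 of the 14 filled points, with Sqle at 2.58 the highest. Over all genes tested, 14.9% were called in that comparison, against 4.84% in N-LKO versus WT liver under HFD.

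The genes whose pattern was most like that of each member were ranked by the lower of 2 Pearson correlations of log2 CPM, over the 8 HFD and over the 9 WD libraries, among 8601 genes. The points include the group differences and share depth, so these are descriptions. For Rtn4 they were Ubd, a ubiquitin-like protein, with 0.95 and 0.93, Cndp2, a dipeptidase, with 0.92 and 0.92, and H2-Ab1, an MHC class II chain, with 0.92 and 0.92. For Npc2 they were Ccdc80, a matrix protein, with 0.91 and 0.87, Ccn2, connective tissue growth factor, with 0.88 and 0.86, and Col1a2, a collagen chain, with 0.87 and 0.85. For Npc1 they were Usp30, a mitochondrial deubiquitinase, with 0.85 and 0.84, Pip5k1a, a phosphoinositide kinase, with 0.76 and 0.84, and Ppm1l, a phosphatase, with 0.76 and 0.84. For Rtn3 they were Psma1, a proteasome subunit, with 0.83 and 0.82, Mrpl54, of the mitochondrial ribosome, with 0.83 and 0.81, and Gss, glutathione synthetase, with 0.79 and 0.80. Among the members, Rtn4 and Npc2 had 0.85 under HFD and 0.22 under WD, Rtn3 and Rtn4 0.56 and 0.55, and Npc1 and Npc2 0.01 and -0.69. By Spearman correlation, H2-Ab1 remained among the first 3 for Rtn4 and Usp30 for Npc1, and no other of these genes remained.

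**Figure D5:**
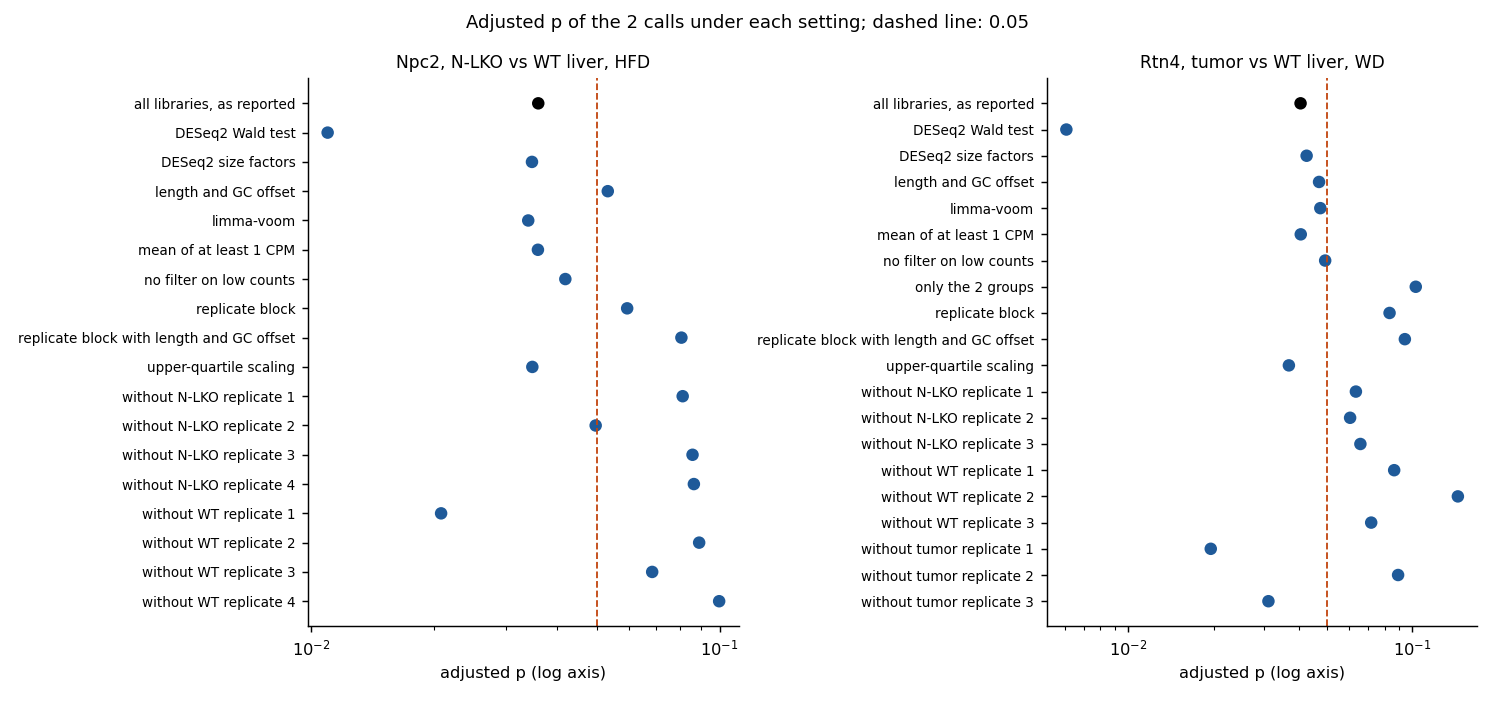
Adjusted p (x axis, log scale) of Npc2 in N-LKO versus WT liver under HFD and of Rtn4 in tumor versus WT liver under WD, with all libraries and under each other setting (y axis), with 0.05 dashed. The values run from 0.0110 to 0.0997 for Npc2 and from 0.00608 to 0.144 for Rtn4.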

How the data were processed

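Estimated counts per gene were deposited for 17 samples, in a table of 19151 genes for HFD and a table of 24233 genes for WD. The authors removed ribosomal RNA, sequenced single-end reads, trimmed them and made the counts in Partek by expectation-maximization, which divides reads between features. The study's methods name TopHat2, while the submitters' processing notes name STAR and mm9. Start positions of genes found by symbol were those of GENCODE M21 on GRCm38 in 99.5% and 99.4% of cases, so positions are given in GRCm38. Versions were not given in the sources used here. Of the deposited values, 69.3% under HFD and 66.2% under WD were exactly whole numbers. Rtn4 and Npc1 held shared reads in most libraries, Npc2 in none beyond 0.02 of a whole count.

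Counts were rounded and fitted with edgeR 4.0.16 in R 4.3.3 (TMM, filterByExpr, quasi-likelihood F test, Benjamini-Hochberg over all genes tested, threshold 0.05), HFD livers alone and the 3 WD groups together. The study's own test needs the reads themselves, not used here. An SE is the absolute log2 fold change over √F, and 95% intervals use the degrees of freedom of the fit. CPM were computed from TMM-scaled totals. Log2 CPM for correlations had a prior count of 2, and ratios of counts had 0.5 added to each. Groups and replicate numbers came from the sample titles, and p-values measure the spread between these samples. The chi-square per degree of freedom was 8.00 to 103.6 for the 21 library pairs of a group, so no pair agreed within sampling noise. Alternatives were DESeq2 1.42.0 size factors and its Wald test, upper-quartile scaling, limma-voom (limma 3.58.1), other filters, an offset on length and GC content, a replicate block, fits of only the compared groups and leaving out each library. The fits were tested on simulated counts. These had a smaller spread than the WD libraries and held planted changes larger than that of Npc2 under HFD. The simulation therefore does not show how the fits perform on the WD set or on small changes.

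The 4 members and the 11 lists of 111 genes in all were chosen with earlier results of these data known. The motifs were chosen with the sequences in view. Named were the members, Nus1, Dhdds, at most 4 called genes per list with the largest change and 1 CPM or more on average, the 2 genes of a list with the highest mean CPM over the WD libraries where fewer than 2 were such, and the 3 genes most like each member averaging 5 CPM or more, leaving out automatic names. Abca1, Gramd1a, Rtn1, Rtn2, Krt7, Krt19, Lamp1, Lamp2, Ctsl and Gm2a fell outside that rule and were named after their values were seen, as was Isca2.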

Additional observations from a re-analysis of the deposited data

Results flagged for a closer look

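In 64 groups of 4 livers under HFD, the highest or lowest library was compared with the rest by the size of its gap relative to the group's range. For independent, normally distributed values, chance alone marks about 1 group in 20, and 8 were marked. The groups come from the same livers and are not independent, so this number does not show an excess. The log2 ratio of Rtn4 to Rtn3 counts was -0.0666 in WT liver replicate 1, a ratio of 0.955, while the other 3 WT livers had 0.608 to 0.652. This library also held the highest Rtn4 and Npc2 of the WT livers. Marco stood at 26.02 CPM in WT replicate 3, with the next at 9.47. Cdh5 stood at 18.9 in WT replicate 2, with the next at 14.6, and at 15.5 in N-LKO replicate 4, with the next at 9.03. In WT replicate 2, Gramd1b stood at 1.43 with the next at 1.77 and Gramd1c at 33.0 with the next at 35.7, both the lowest. Reep3 stood at 119.8 in WT replicate 3, with the next at 138.3, and Sox9 at 3.75 in WT replicate 1, with the next at 5.54.

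The effect of genotype on Pirb differed between the diets by 1.68 on the log2 scale, with adjusted p = 0.0265 in the interaction test of edgeR. The call was lost in 7 of 23 alternatives, among them the replicate block (adjusted p = 0.0701), the length and GC offset (0.0557) and both (0.124), and without N-LKO replicate 1 or WT replicate 2 under HFD or N-LKO replicate 3 or WT replicate 2 under WD (up to 0.0682). Pirb fell by 1.49 under HFD, where all 4 N-LKO livers were below all 4 WT livers, and had 0.17 under WD, where the groups overlapped.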

How the results depend on the processing

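Counts of genes past the threshold moved with the test. Under HFD edgeR called 652, the DESeq2 Wald test 1000, a length and GC offset 287 and the replicate block with that offset 168. For N-LKO against WT liver under WD the DESeq2 Wald test called 100 and a fit of only the 2 groups 6, against 0. For tumor against N-LKO liver, with 89, the counts were 46 with a mean of at least 1 CPM, 1021 with the DESeq2 Wald test, 18 with limma-voom, 36 with the replicate block, 39 with the block and the offset and 29 with only the 2 groups. Tumor against WT liver, with 2653, had 705 with only the 2 groups. The interaction, with 257, had 981 with the DESeq2 Wald test, 0 with the replicate block, 43 with the offset and 0 with both. Leaving out 1 library gave 179 to 597 under HFD, 0 to 1 for genotype under WD, 3 to 2193 for tumor against N-LKO liver (3 without N-LKO replicate 2, 2193 without tumor replicate 1), 569 to 3819 for tumor against WT liver (569 without WT replicate 2) and 22 to 330 for the interaction. The cause was not tested.

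Npc2 under HFD kept a log2 fold change of 0.37 but lost the call with the replicate block (0.37, adjusted p = 0.0594), with the offset (0.37, adjusted p = 0.0532) and with both (0.37, adjusted p = 0.0806), and it passed in 6 of 9 settings other than leaving out a library. Rtn4 in tumor against WT liver lost the call with the block (1.03, adjusted p = 0.0831), with both (0.99, adjusted p = 0.0941) and with only the 2 groups (1.06, adjusted p = 0.103), and it passed in 7 of 10. These p-values are adjusted over all genes tested. Values near 0 changed sign. Npc1 under HFD had 0.074 with the offset and 0.075 with both. Npc2 in tumor against N-LKO liver had -0.00088 with DESeq2 size factors, -0.0057 with no filter, -0.00090 with the DESeq2 Wald test, -0.0042 with limma-voom, -0.0016 with the block, -0.0084 with the offset and -0.016 with both. Against WT liver, Rtn3 had -0.018 with no filter, -0.0026 with limma-voom, -0.021 with the offset and -0.040 with both, and Npc1 had 0.042 with upper-quartile scaling. The interaction of Rtn4 was -0.11 with the offset and -0.10 with both, and Dhdds in N-LKO against WT liver under WD had 0.029 with upper-quartile scaling and 0.0017 with the offset.

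Leaving out 1 library moved Npc2 under HFD between 0.32 and 0.43, Rtn4 between 0.26 and 0.46, and Npc1 between -0.083 and 0.024. For genotype under WD the ranges were -0.12 to -0.035 for Rtn3, 0.19 to 0.46 for Rtn4, -0.28 to -0.061 for Npc1 and 0.041 to 0.20 for Npc2. In tumor against N-LKO liver they were -0.11 to 0.19 for Rtn3, 0.23 to 0.93 for Rtn4, -0.0074 to 0.24 for Npc1, -0.13 to 0.063 for Npc2 and -0.36 to 0.054 for the log2 ratio of Npc2 to Npc1. In tumor against WT liver they were -0.21 to 0.12 for Rtn3, 0.55 to 1.28 for Rtn4, -0.18 to 0.080 for Npc1 and -0.055 to 0.36 for that ratio. The interaction of Rtn4 ran from -0.15 to 0.15, that of Dhdds from -0.16 to 0.013, and Dhdds in N-LKO against WT liver under WD from -0.11 to 0.065. The titles did not say that the replicate numbers pair the samples, and a block on any other label was not fitted. Libraries of the same number had correlations of their deviations from the group means of -0.08 to 0.11 under HFD and -0.12 to 0.10 under WD. So few pairs cannot exclude a pairing, and the replicate block tests a shared number only. With 3 or 4 libraries a group, the intervals given beside the members' values show the range of effects compatible with the data. They are not adjusted over all genes and are not limits of detection.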
